A study of Homo sapiens with 6 samples.

Results

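Heat shock and chaperone genes were examined for DNA double-strand breaks (DSBs) in HCT116 cells, a human colorectal carcinoma line. The cells were treated with 10 µM camptothecin (CPT), a drug that traps topoisomerase I on DNA, for 10 min (CPT10) or 20 min (CPT20), with 2 biological replicates of each. The set was fixed by name as 10 genes out of 20098 protein-coding genes on chromosomes 1 to 22 and X, and it was chosen with earlier results of these data known. A gene window was the GENCODE gene body with 5 kb added on each side, in hg19 coordinates. Sample names attach µM to 10 and 20 alike. The protocol and design text instead state 1 dose and 2 durations, which was taken as correct. All cells received murine pre-B cells as a spike-in. The 2 untreated libraries served as peak-calling input and no peak list of theirs was analysed here, so no value below has an untreated background, and the mean of each treated library is the reference.

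END-seq marks the ends of DSBs. Reads start at a broken end and run away from it, so the left side of a break with 2 ends gives reverse-strand reads and the right side forward-strand reads. A paired site is a reverse peak together with its closest forward peak, overlapping it or starting less than 150 bp downstream. The 8 peak lists held between 286491 and 826744 peaks each, and CPT20 replicate 2 had the fewest. CPT10 replicate 1 held 826744 reverse but 591881 forward peaks, the only library with such an imbalance. Read totals were not used here, so depth was followed through the height that each list expects by chance, from 0.727 fragments in CPT10 replicate 2 to 1.44 in CPT10 replicate 1.

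Chaperones bind unfolded proteins and help them fold, and heat shock raises the transcription of many of their genes through the factor HSF1. HSP70 proteins bind short hydrophobic stretches, with J-domain proteins delivering clients and HSP110 proteins releasing the nucleotide. HSP90 proteins act later, on nearly folded clients, and the chaperonin HSP60 with its lid HSP10 encloses clients in mitochondria. Several of these genes are transcribed at high rates in proliferating cells without any heat shock.

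The HSP70 family was represented by HSPA8 (HSC70, the constitutive cytosolic form, ENSG00000109971.14, chr11:122928197-122933938, minus strand), HSPA5 (BiP, in the endoplasmic reticulum, ENSG00000044574.9, chr9:127997132-128003661, minus strand) and HSPA9 (mortalin, in mitochondria, ENSG00000113013.16, chr5:137889445-137911364, minus strand). The HSP90 family was represented by HSP90AA1 (the inducible cytosolic form, ENSG00000080824.19, chr14:102547079-102606036, minus strand), HSP90AB1 (the constitutive cytosolic form, ENSG00000096384.20, chr6:44213903-44221625, plus strand) and HSP90B1 (GRP94, in the endoplasmic reticulum, ENSG00000166598.16, chr12:104323885-104347709, plus strand). HSPD1 (HSP60, ENSG00000144381.18, chr2:198351308-198381461, minus strand) and HSPE1 (HSP10, ENSG00000115541.11, chr2:198364864-198368173, plus strand) lie head to head, with transcript starts 539 bp apart. Their windows overlap, so that they share peaks and are not separate observations. HSPH1 (an HSP110, ENSG00000120694.20, chr13:31709110-31736525, minus strand) and DNAJB1 (HSP40, a J-domain protein, ENSG00000132002.9, chr19:14625581-14671203, minus strand) complete the set. Other protein-coding genes overlap the windows of HSPA5 (RABEPK), HSP90AA1 (WDR20), HSP90AB1 (NFKBIE and SLC35B2), HSP90B1 (UQCC6) and DNAJB1 (TECR). HSPE1-MOB4 overlaps those of HSPD1 and HSPE1, and MOB4 that of HSPD1. Peaks over these genes are counted in the windows. The annotated bodies of HSP90AA1, DNAJB1 and HSPD1 begin 52655, 41994 and 16897 bp upstream of the start of the MANE Select transcript, the transcript used for every distance below. Processed pseudogenes named after HSPA8, HSPD1 and HSPE1 number 17, 18 and 26 in the annotation, and the peaks rest on read pairs whose mapping quality reached 30.

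Several of the promoters carry sequences that HSF1 or the unfolded protein response are known to use. The 250 bases upstream of the start are shown for 4 genes, because peaks lay over the starts of HSPA8, HSPA5 and HSP90B1 in all 4 libraries and DNAJB1 is a well known HSF1 target. Capitals mark the letters GAANNTTC and TTCNNGAA, the paired units of a heat shock element, and the endoplasmic reticulum stress element, CCAAT and CCACG separated by 9 bases. Sequences are GRCh37, read in the direction of transcription.
HSPA8 promoter, chr11:122932845-122933094, minus strand: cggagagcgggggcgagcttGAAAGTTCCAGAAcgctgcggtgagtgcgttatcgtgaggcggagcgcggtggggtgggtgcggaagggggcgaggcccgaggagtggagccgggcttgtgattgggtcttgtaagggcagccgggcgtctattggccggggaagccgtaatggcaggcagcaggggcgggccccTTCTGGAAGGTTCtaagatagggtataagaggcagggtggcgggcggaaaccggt
HSPA5 promoter, chr9:128003623-128003872, minus strand: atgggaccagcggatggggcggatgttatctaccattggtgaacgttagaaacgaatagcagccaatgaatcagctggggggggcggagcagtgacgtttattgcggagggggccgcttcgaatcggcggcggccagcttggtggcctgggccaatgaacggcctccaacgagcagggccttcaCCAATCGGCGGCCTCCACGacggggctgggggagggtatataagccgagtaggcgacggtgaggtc
HSP90B1 promoter, chr12:104323938-104324187, plus strand: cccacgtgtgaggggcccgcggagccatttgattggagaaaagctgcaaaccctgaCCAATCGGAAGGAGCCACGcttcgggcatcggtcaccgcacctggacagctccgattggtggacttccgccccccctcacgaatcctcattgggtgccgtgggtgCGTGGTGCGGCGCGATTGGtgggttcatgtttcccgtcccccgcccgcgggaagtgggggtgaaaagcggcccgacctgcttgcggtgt
DNAJB1 promoter, chr19:14629210-14629459, minus strand: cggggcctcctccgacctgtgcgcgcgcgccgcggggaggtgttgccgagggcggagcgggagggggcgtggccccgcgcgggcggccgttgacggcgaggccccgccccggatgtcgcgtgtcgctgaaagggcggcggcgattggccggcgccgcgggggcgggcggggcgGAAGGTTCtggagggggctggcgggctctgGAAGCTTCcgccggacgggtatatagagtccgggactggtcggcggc

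In windows from 250 bases upstream to 50 bases downstream of the start, and on both strands, at least 1 of the 2 heat shock letter strings was found in HSPA8, HSPA9, HSP90AA1, HSPD1, HSPH1 and DNAJB1, 6 of 10 genes, against 11.1% of 20098 promoters. The strings GAANNTTC and TTCNNGAA overlap each other in several of these, as in the HSPA8 sequence. The endoplasmic reticulum stress element was found in HSPA5 and HSP90B1, the 2 genes of that compartment, and in 0.104% of all promoters. A peak of either strand overlapped the same 300 bases in all 4 libraries for HSPA8, HSPA5 and HSP90B1, in 3 for HSP90AA1, in 2 for HSPA9, HSP90AB1, HSPD1, HSPE1 and DNAJB1, and in 1 for HSPH1. The share of all promoters with such a peak is not given here, so these counts only describe the single genes.

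Peaks were dense over most of the chaperone genes. Peak density was expressed as a fold of the mean peak density of the same library, both strands together. This scales each library by its own number of peaks but does not make lists of different length alike. It was highest on HSPE1 at 4.17 ± 1.27 (SD, n = 4 libraries) and lowest on HSPH1 at 1.49 ± 0.42 (SD, n = 4). The HSPE1 window, the shortest of the set at 13310 bp, takes in the first part of HSPD1. Its rank therefore does not describe HSPE1 alone. Over all protein-coding genes the median was 1.10 to 1.36 fold in the 4 libraries, and over the 10 chaperone genes it was 2.71 to 3.50 fold.

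**Figure D1:**
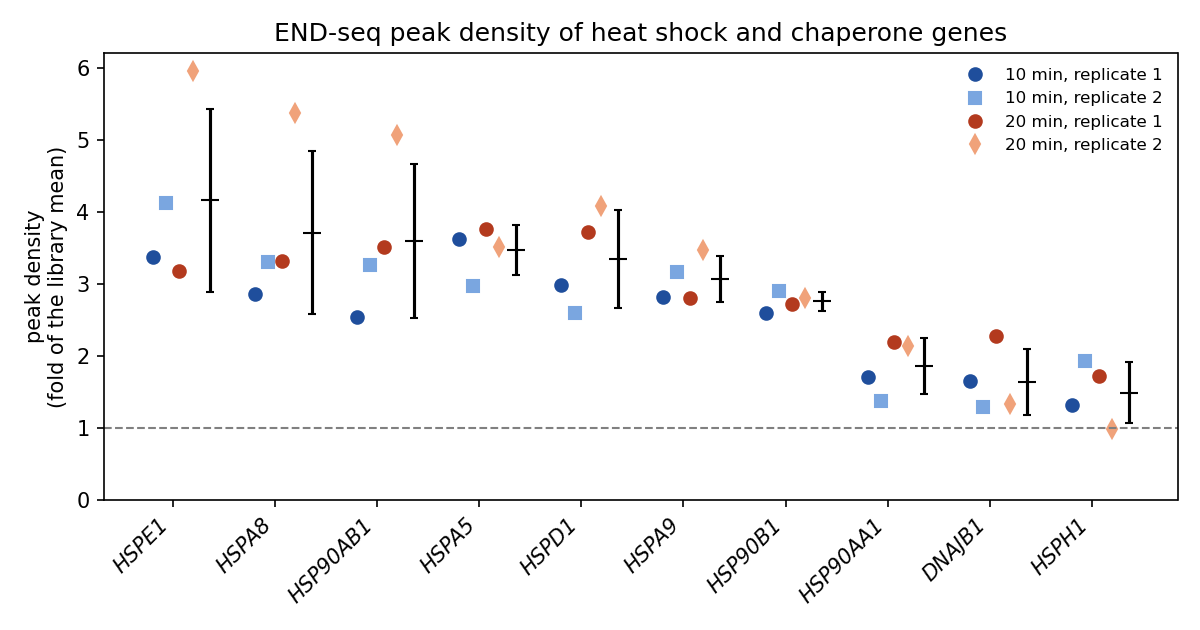
Peak density of each gene window as a fold of the mean density of its library (vertical axis, linear, the dashed line is 1) for the 10 genes in order of their mean, with 1 point per library and the mean with SD of the 4 libraries in black. The 7 genes from HSPE1 to HSP90B1 lie above 2.5 fold in each library, and HSP90AA1, DNAJB1 and HSPH1 lie below 2.3 fold.

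Among the HSP70 genes, HSPA8 reached 2.86 and 3.31 fold at 10 min and 3.32 and 5.38 fold at 20 min in replicates 1 and 2. HSPA5 reached 3.63 and 2.98 fold at 10 min and 3.77 and 3.52 fold at 20 min. HSPA9 reached 2.82 and 3.17 fold at 10 min and 2.81 and 3.48 fold at 20 min. All 3 were above their library mean in each library, with the 2 times overlapping for HSPA5 and HSPA9. Against all genes, HSPA5 lay above 96.9% to 99.8% of windows and HSPA8 above 98.2% to 99.6%.

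Of the HSP90 genes, HSP90AB1 had 2.54 and 3.27 fold at 10 min and 3.51 and 5.08 fold at 20 min. HSP90B1 had 2.60 and 2.91 fold at 10 min and 2.72 and 2.82 fold at 20 min. HSP90AA1 had 1.71 and 1.39 fold at 10 min and 2.2 and 2.15 fold at 20 min. The window of the constitutive HSP90AB1 thus stood above that of the inducible HSP90AA1 in each library. These windows are not alike, because that of HSP90AA1, at 68958 bp, is the longest of the set and extends far upstream of the transcript start. In the 5 kb downstream of the start, peaks covered more of HSP90AA1 (64.9%) than of HSP90AB1 (59.7%) in CPT20 replicate 1, and less in the other libraries.

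The chaperonin pair shares part of its windows. HSPD1 had 2.99 and 2.60 fold at 10 min and 3.72 and 4.09 fold at 20 min, and HSPE1 had 3.39 and 4.13 fold at 10 min and 3.18 and 5.97 fold at 20 min. The 2 cofactors were the lowest of the set together with HSP90AA1, and the window of DNAJB1, like that of HSP90AA1, extends far upstream of its transcript start. DNAJB1 had 1.66 and 1.3 fold at 10 min and 2.28 and 1.33 fold at 20 min. HSPH1 had 1.32 and 1.93 fold at 10 min and 1.73 and 0.991 fold at 20 min, the only value of the set below its library mean. In the order of the means, the step from HSP90B1 to HSP90AA1 (0.90 fold) was the only one larger than the larger SD of the 2 neighbours, and all other neighbours were not separated by their spread.

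The density was tested against the library mean with limma over 18471 protein-coding windows, with the 4 treated libraries taken as 4 samples although they may share an experiment between the 2 times. In that test 30.7% of all windows were called higher at an adjusted p under 0.05, and 9 of the 10 chaperone windows were. The log2 estimate was 1.89 ± 0.18 (SE) for HSPE1, 1.75 ± 0.18 for HSPA8, 1.71 ± 0.18 for HSP90AB1, 1.70 ± 0.14 for HSPA5, 1.68 ± 0.16 for HSPD1, 1.57 ± 0.13 for HSPA9 and 1.42 ± 0.12 for HSP90B1, each with a limma adjusted p of 0.00207. HSP90AA1 (0.86 ± 0.15, limma adjusted p = 0.00645) and DNAJB1 (0.67 ± 0.17, limma adjusted p = 0.0228) were called with smaller estimates. HSPH1 was not called (0.52 ± 0.18, limma adjusted p = 0.0669). Peaks over the first part of HSPD1 count in the HSPE1 estimate. With the replicate number as a random block (estimated correlation 0.0984) 28.5% of all windows and the same 9 chaperone windows were called. The median estimate was 1.62 over the chaperone genes and 0.26 over all windows tested.

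Genes lie in regions that differ in peak density, so the windows were also set against their surrounding 500 kb. There 17.3% of all windows were called higher, and again 9 of the 10 chaperone windows, with HSPH1 gained (0.54) and DNAJB1 lost (0.33). The DNAJB1 call was also lost without CPT10 replicate 1 (0.65), without CPT20 replicate 1 (0.50) and on forward peaks alone (0.06), and HSPH1 was called without CPT20 replicate 2 (0.70) and in gene bodies without flanks (0.65), where all 10 genes and 30.9% of all gene bodies were called.

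Where the peaks lay around the start was also examined. In bins of 500 bp from 5 kb upstream to 10 kb downstream of the start, the share of bases under a peak, averaged over strands and libraries, was highest within 4 kb downstream of the start in 9 of the 10 genes. The same count is not given here for all genes. Their mean coverage was also higher in the 5 kb downstream than upstream in each library, as 11.3% against 8.49% in CPT20 replicate 1. The highest bin held 94.4 ± 8.8% (SD, n = 4) of bases under peaks on HSPD1, at 1.5 to 2 kb, and 88.0 ± 15.5% on HSP90AB1, at 3.5 to 4 kb. It held 83.0 ± 23% on HSPA8, at 0.5 to 1 kb, and 81.5 ± 7.0% on DNAJB1, at 1.5 to 2 kb. On HSPH1 the highest bin reached 29.1 ± 32.4% and was free of peaks in at least 1 library. HSPE1 was the exception in position, with its highest bin 2 to 2.5 kb upstream of its start, inside HSPD1.

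**Figure D2:**
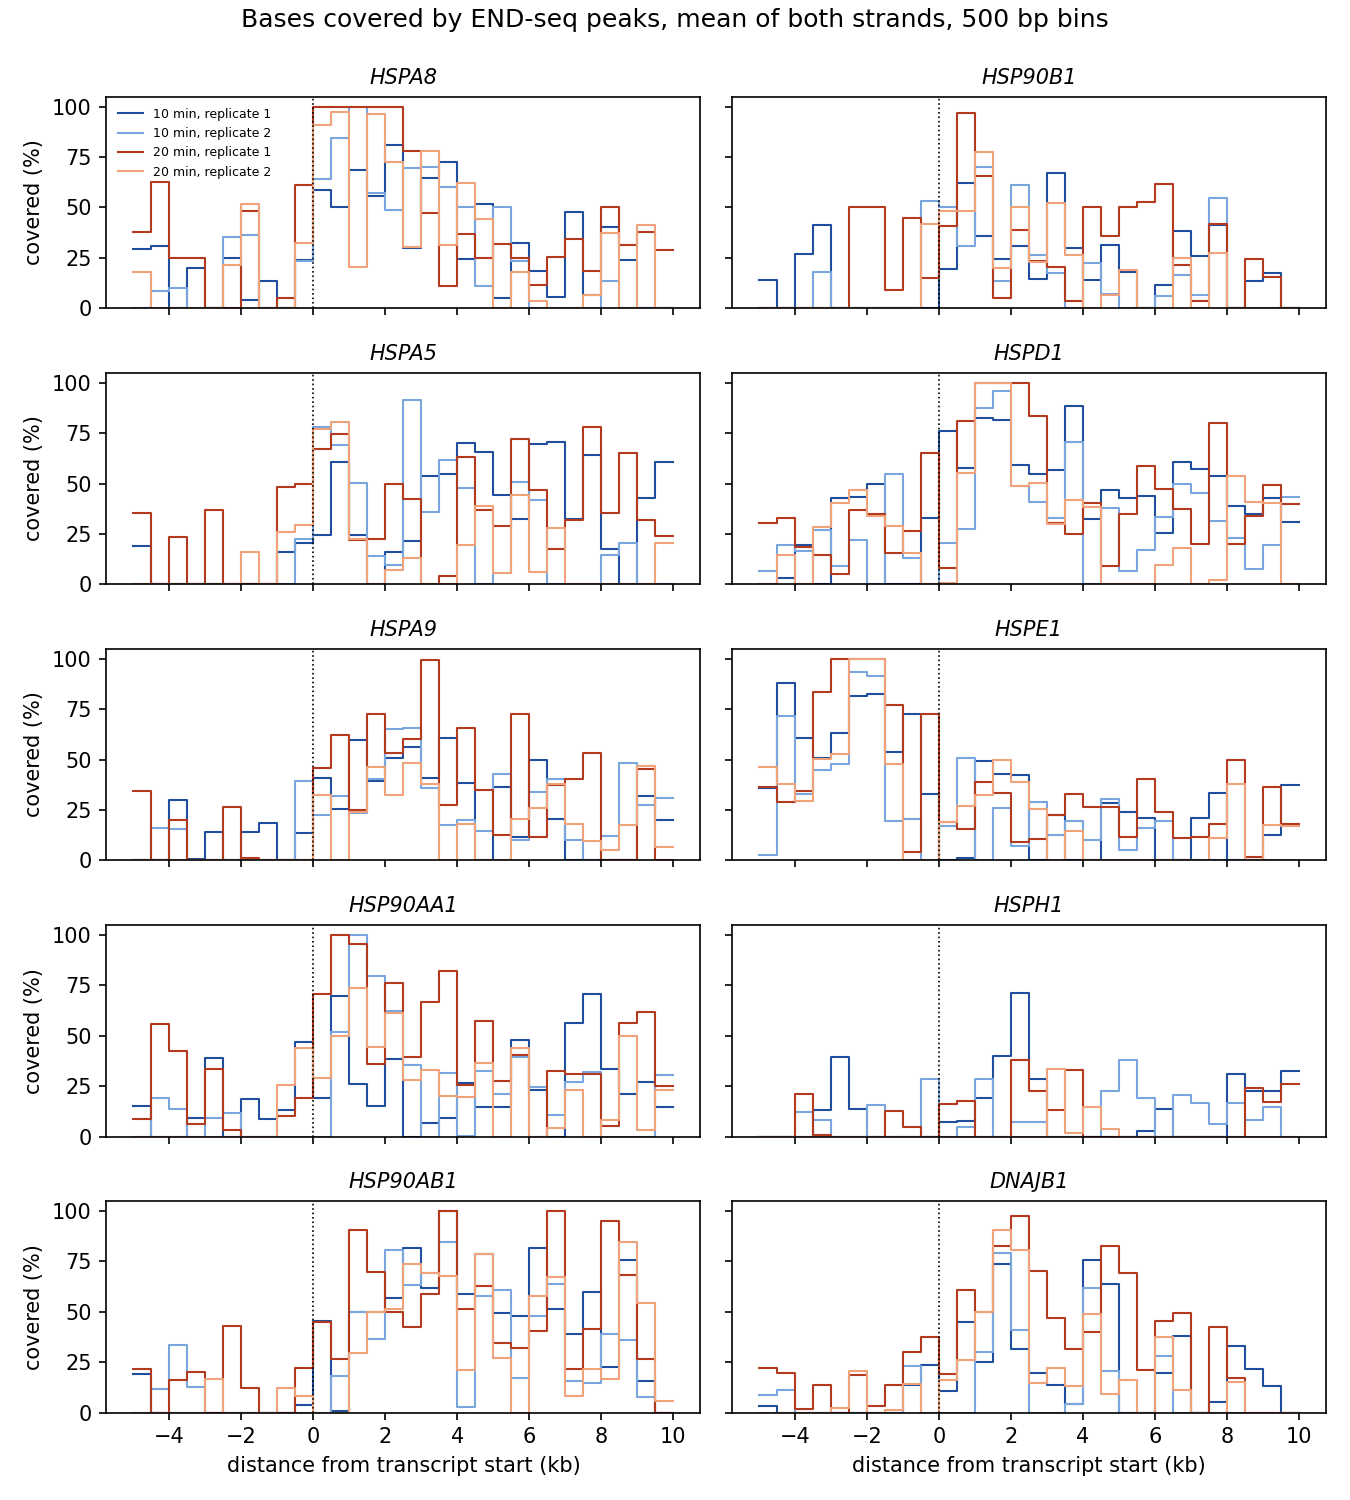
Percent of bases covered by peaks (vertical axis, mean of the forward and reverse lists) in 500 bp bins from 5 kb upstream to 10 kb downstream of the transcript start (horizontal axis, kb), 1 panel per gene and 1 line per library. Coverage rises at or just after the start on all genes but HSPE1, where the high bins lie upstream, and HSPH1, where coverage is low.

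Across the 5 kb downstream of the start, HSPA8 was covered over 55.7% and 61.5% of bases at 10 min and 69.8% and 62.4% at 20 min, and over its upstream 5 kb by 14.7%, 11.4%, 26.5% and 12.4% in the same order of libraries. HSP90AB1 was covered over 58.4%, 46.3%, 59.7% and 44.1% downstream and 2.27%, 5.83%, 13.5% and 3.74% upstream. DNAJB1 was covered over 36.3%, 23.7%, 58.2% and 37.1% downstream and 4.04%, 4.26%, 16.1% and 3.81% upstream. On all 3 the lowest downstream value was above the highest upstream value. Over all protein-coding genes the median downstream coverage was 2.43% to 8.67% in the 4 libraries, and the median upstream coverage 1.82% to 6.86%.

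Most of the remaining genes kept the same side. The downstream share ranged over the 4 libraries from 25.9% to 45.7% on HSPA5, from 24.0% to 54.6% on HSPA9, from 22.6% to 64.9% on HSP90AA1, from 29.8% to 38.1% on HSP90B1 and from 46.3% to 63.6% on HSPD1. The upstream share ranged from 2.27% to 19.4%, 0 to 9.11%, 5.36% to 18%, 4.18% to 17.0% and 16.9% to 28.1% in the same order of genes. These ranges did not overlap. With HSPA8, HSP90AB1 and DNAJB1 they make 8 of 10 genes whose lowest downstream value exceeded the highest upstream value, against 6.74% of the 18509 genes tested. HSPH1 had 5.38% to 17.4% downstream and 0 to 6.65% upstream, and its ranges did overlap. HSPE1 was the other way round, with 18.7% to 23.4% downstream and 42.5% to 63.8% upstream, where the first part of HSPD1 lies.

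**Figure D3:**
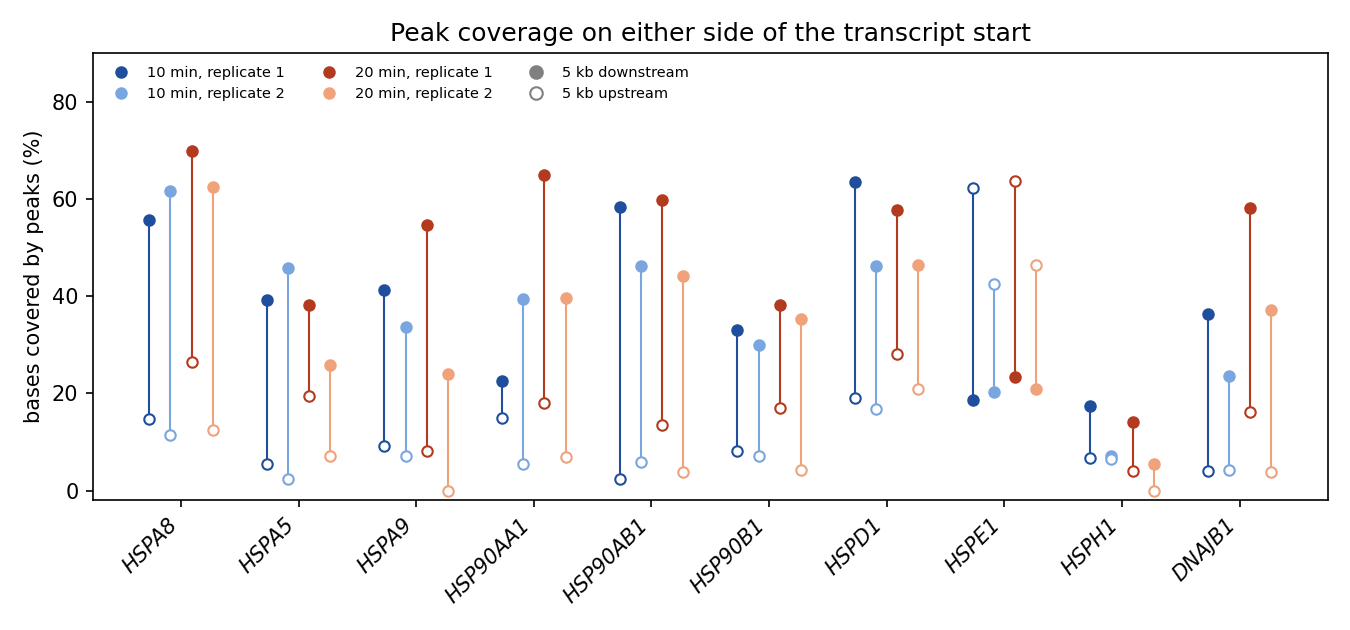
Percent of bases covered by peaks (vertical axis) in the 5 kb downstream (filled) and the 5 kb upstream (open) of the transcript start, with a line joining the 2 values of a gene in a library. The filled point is above the open one in every library for all genes but HSPE1.

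Counted as peaks, this difference was not significant. The log2 ratio of downstream to upstream peaks was 2.10 ± 0.66 (SE) for HSPA5, 1.88 ± 0.58 for HSPA9, 1.68 ± 0.57 for HSP90AB1, 1.64 ± 0.48 for HSP90B1, 1.29 ± 0.49 for DNAJB1 and 1.27 ± 0.51 for HSP90AA1. It was 1.20 ± 0.55 for HSPH1, 0.37 ± 0.46 for HSPA8, 0.09 ± 0.43 for HSPD1 and -0.16 ± 0.43 for HSPE1. None of the 10 genes, and 0% of 18509 genes tested, passed a limma adjusted p of 0.05 in either direction, while 6 chaperone genes and 2662 of all genes had an unadjusted p under 0.05. A peak was counted on the side of its summit, whatever bases it covered. On HSPA8 in CPT20 replicate 1 the forward peak chr11:122930215-122933164, 2950 bp long, had its summit just upstream of the start and so counted as an upstream peak, although most of its bases lay downstream.

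The same comparison on covered bases, chosen after seeing the data, called 4.21% of all genes with more coverage downstream, and 6 of the 10 chaperone genes. These were HSP90AB1 (log2 ratio 3.03 ± 0.56 SE, limma adjusted p = 0.00966), HSPA9 (2.78 ± 0.57, limma adjusted p = 0.0135), DNAJB1 (2.44 ± 0.53, limma adjusted p = 0.0158), HSPA5 (2.25 ± 0.57, limma adjusted p = 0.0307), HSPA8 (1.94 ± 0.51, limma adjusted p = 0.0382) and HSP90B1 (1.91 ± 0.52, limma adjusted p = 0.0436). The median was 1.92 over the chaperone genes and 0.27 over all genes tested. On summed summit heights the calls were 3, HSPA5, HSPA9 and HSP90AB1, against 3.47% of all genes. With the replicate number as a random block in limma (estimated correlation -0.2), covered bases gave 7 calls against 8.84% of all genes, HSP90AA1 being added (1.83 ± 0.48, limma adjusted p = 0.0240). A negative estimate makes the SE of a mean smaller.

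**Figure D4:**
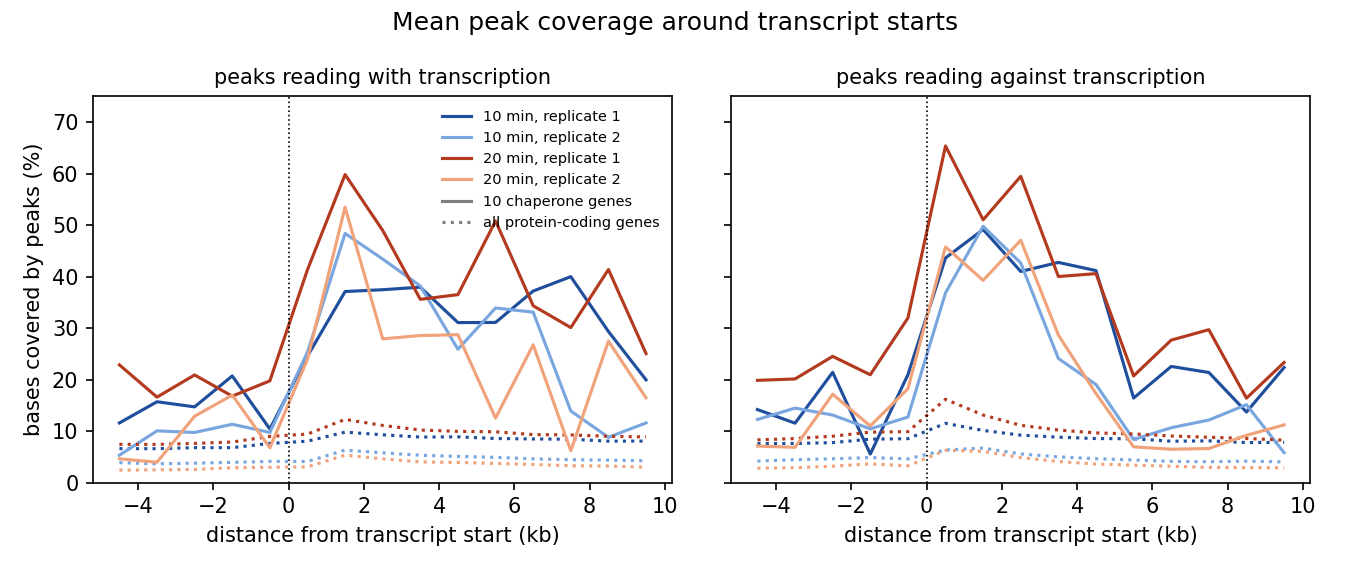
Mean percent of bases covered by peaks (vertical axis) in 1 kb bins around the transcript start (horizontal axis, kb), for peaks whose reads run with transcription (left) and against it (right). Solid lines are the 10 chaperone genes and dotted lines all 20098 protein-coding genes, 1 colour per library. Over the 5 kb downstream of the start the chaperone genes averaged 38.6%, 35.4%, 47.9% and 34.1% in the 4 libraries, against 9.31%, 5.48%, 11.3% and 4.58% for all genes.

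Relative to the mean of all genes, coverage of the chaperone genes was 4.15 to 7.44 times as high in the 5 kb downstream of the start, 3.11 to 4.06 times as high in the next 5 kb and 1.98 to 3.63 times as high in the 5 kb upstream. The upstream mean includes HSPE1, whose upstream 5 kb lies mostly over HSPD1. HSPE1 was covered over 42.5% to 63.8% of bases there, against at most 28.1% on any other gene of the set. The upstream ratio without HSPE1 is not given here. Exons and introns of the transcripts showed no common order. HSP90AB1 had 60.8 ± 7.5% of exon and 44.3 ± 9.7% of intron bases under peaks (SD, n = 4), with exons higher in each library. HSPA9 had 16.6 ± 9.9% of exon and 23.3 ± 6.2% of intron bases and HSPH1 5.59 ± 2.78% and 8.23 ± 4.23%, with introns higher in each library. On HSPA9 in CPT20 replicate 1 they were nearly equal, at 28.6% of exon and 28.7% of intron bases. The share of all genes with the same order in each library is not given here. The order changed between libraries on the other 7 genes, as on HSPA8 with 62.3 ± 3.2% of exon and 66.5 ± 10.5% of intron bases.

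A break with 2 ends should give peaks on both strands, and the balance of the strands was compared next. The log2 ratio of peaks reading with transcription to peaks reading against it, corrected for the list totals, was highest on DNAJB1 (0.99 ± 0.25 SE, limma adjusted p = 0.0713), HSPE1 (0.78 ± 0.24) and HSPA8 (0.69 ± 0.22), and lowest on HSPD1 (-0.59 ± 0.20). DNAJB1, a minus-strand gene, had 14, 7, 18 and 4 forward and 29, 18, 33 and 10 reverse peaks in the 4 libraries, more reverse peaks in each. These were counted over its whole window of 55623 bp, in which its transcript spans 3629 bp and which TECR also overlaps. The peaks therefore need not lie on the DNAJB1 transcript. HSPD1 and HSPE1 are transcribed in opposite directions and share forward peaks in excess, which gives their ratios opposite signs. None of the 10 genes, and 0% of 18471 windows, passed a limma adjusted p of 0.05, although 7013 windows and 4 chaperone genes had an unadjusted p under 0.05. With the replicate number as a random block, again with a negative estimated correlation (-0.14), 17.1% of windows were called in either direction and DNAJB1 was the 1 chaperone gene among them (limma adjusted p = 0.0475).

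Paired sites were counted next. All 10 windows held paired sites in each library, from 1 to 16, with the most on HSPD1 in CPT20 replicate 1 and at most 2 on HSPH1. The libraries held from 18831 paired sites in CPT20 replicate 2 to 102733 in CPT10 replicate 1. The share of all windows with a site in a single library is not given here. A replicated site, one whose counterpart in the other replicate overlapped it by at least 1 bp, was present at 10 min in 9 of the 10 windows, against 11.5% of all protein-coding windows. At 20 min it was again 9 of 10 against 11%. Sites replicated at both times, termed persistent, were present in 9 of 10 windows against 3.81%, or 4.31% among the 12260 windows within the length range of the set. HSPH1 was the gene without any. The persistent site of HSPE1 is the same as that of HSPD1, so these 2 windows are not separate counts. Windows with denser peaks offer more pairs and more overlaps, and HSPH1 also had the lowest density. The part of peak density in these counts was not tested.

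The midpoint of a replicated site lay 0 to 5 kb downstream of the start on 8 of 10 genes at 10 min (4.47% of all genes) and on 8 at 20 min (5.52%). For persistent sites it was again 8 of 10 genes, against 2.06% of all genes and 2.39% of genes in the length range. Only HSPE1 had a persistent site centred in the 5 kb upstream (0.622% of all genes), and it was the site of HSPD1 seen from the other side.

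The strongest was on HSPA8. Its site chr11:122929278-122933170 at 20 min, 3893 bp from 326 bp upstream to 3566 bp downstream of the start, had a weaker-strand −log10 q of 98.5 in replicate 1 and 60.0 in replicate 2, which put it at rank 55 of 2924 replicated sites of that time. At 10 min the site spanned chr11:122927893-122933085 with 27.3 and 15.7, rank 155 of 4011. The reverse peak behind it had its summit 164 to 211 bp downstream of the start in each library, with a −log10 q of 38.2, 65.2, 110 and 60.0.

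HSPD1 had chr2:198360510-198364551 at 10 min (43.6 and 10.7) and chr2:198361433-198364146 at 20 min (40.4 and 15.9), both within its transcript. HSP90AB1 had 3 replicated sites at each time, among them chr6:44215830-44219771 at 10 min (18.4 and 13.1) and chr6:44215570-44219906 at 20 min (24.9 and 9.75), which cover most of its transcript. Another of those at 20 min, chr6:44222424-44224305, lay beyond the transcript and was not replicated at 10 min. DNAJB1 had chr19:14626801-14627775 at 10 min (9.13 and 5.50) and chr19:14625739-14628468 at 20 min (33.5 and 15.9).

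On HSPA5 the site spanned the transcript start at both times, as chr9:128002327-128003849 (8.20 and 5.50) and chr9:128002341-128004604 (20.1 and 12.1), so that at 20 min it included the whole promoter sequence shown above and at 10 min all but the outermost bases of it, with the stress element inside at both times. On HSP90B1 the sites were chr12:104324729-104325609 at 10 min (10.1 and 6.40) and chr12:104323892-104325646 at 20 min (16.2 and 6.70), the latter reaching 296 bp upstream of the start. HSP90AA1 had chr14:102550795-102552910 (8.20 and 13.2) and chr14:102551510-102553479 (9.91 and 6.73). On HSPA9 the site lay further in, 1854 to 3298 bp from the start at 10 min, as chr5:137907792-137909236 (51.6 and 4.60), and at chr5:137907598-137909318 at 20 min (10.9 and 6.73).

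The stretch held by paired sites of all 4 libraries was widest on HSPA8 (1331 bp), HSPD1 (1088 bp) and HSP90AB1 (1071 bp), followed by HSPA9 (655 bp), HSPA5 (644 bp), HSP90AA1 (552 bp), DNAJB1 (154 bp) and HSP90B1 (47 bp). The middle 81 bases of the widest stretch are shown for the 7 genes where it was wider than on HSP90B1, as the DNA found within a site each time. They are GRCh37, read in the direction of transcription, with exon bases in capitals.
HSPA8, chr11:122932375-122932455, minus strand: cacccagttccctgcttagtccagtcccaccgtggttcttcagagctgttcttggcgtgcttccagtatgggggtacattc
HSPD1, chr2:198363044-198363124, minus strand: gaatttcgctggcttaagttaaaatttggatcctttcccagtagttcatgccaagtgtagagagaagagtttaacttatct
HSP90AB1, chr6:44217099-44217179, plus strand: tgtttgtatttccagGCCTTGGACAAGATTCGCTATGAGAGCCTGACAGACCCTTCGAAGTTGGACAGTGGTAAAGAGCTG
HSPA9, chr5:137908080-137908160, minus strand: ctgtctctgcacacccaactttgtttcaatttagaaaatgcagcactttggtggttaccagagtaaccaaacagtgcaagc
HSPA5, chr9:128002816-128002896, minus strand: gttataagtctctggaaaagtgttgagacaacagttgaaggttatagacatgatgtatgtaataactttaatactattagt
HSP90AA1, chr14:102552360-102552440, minus strand: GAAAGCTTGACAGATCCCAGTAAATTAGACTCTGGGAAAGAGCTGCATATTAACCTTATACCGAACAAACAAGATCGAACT
DNAJB1, chr19:14627496-14627576, minus strand: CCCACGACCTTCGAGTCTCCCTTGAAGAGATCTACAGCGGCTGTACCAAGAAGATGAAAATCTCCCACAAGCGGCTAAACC

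The stretches of HSPA8, HSPD1, HSPA9 and HSPA5 are centred in introns and those of HSP90AA1 and DNAJB1 in exons. The HSP90AB1 stretch crosses an intron-exon border. The exon parts of HSP90AB1 and HSP90AA1 come from corresponding positions of the 2 paralogues, with 33 of 45 bases identical in the overlap of the shown sequences. The GC content of the whole stretches ranged from 38.8% on HSPD1 to 55.9% on HSPA8.

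The time of treatment was compared last. Relative density at 20 against 10 min did not pass the threshold on any of the 10 genes, and 0% of 18471 windows were called by limma in either direction (616 had an unadjusted p under 0.05, none of them in the set). The log2 estimate was 0.50 ± 0.28 (SE) for HSP90AB1, 0.49 ± 0.25 for HSP90AA1, 0.46 ± 0.24 for HSPD1 and 0.40 ± 0.29 for HSPA8. On these 4 genes the lowest 20 min value was above the highest 10 min value, as on 22.9% of all windows tested. It was 0.24 ± 0.35 for DNAJB1, 0.16 ± 0.33 for HSPE1, 0.11 ± 0.25 for HSPA5, 0.04 ± 0.24 for HSPA9, -0.01 ± 0.23 for HSP90B1 and -0.28 ± 0.38 for HSPH1, all with overlapping times and each with a limma adjusted p of 0.999. The median was 0.20 over the set and 0.09 over all windows, and on covered bases it was 0.42 and 0.11. With lists of equal length the median of the set was -0.01. The values are relative to each library mean and do not speak of the absolute number of breaks.

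**Figure D5:**
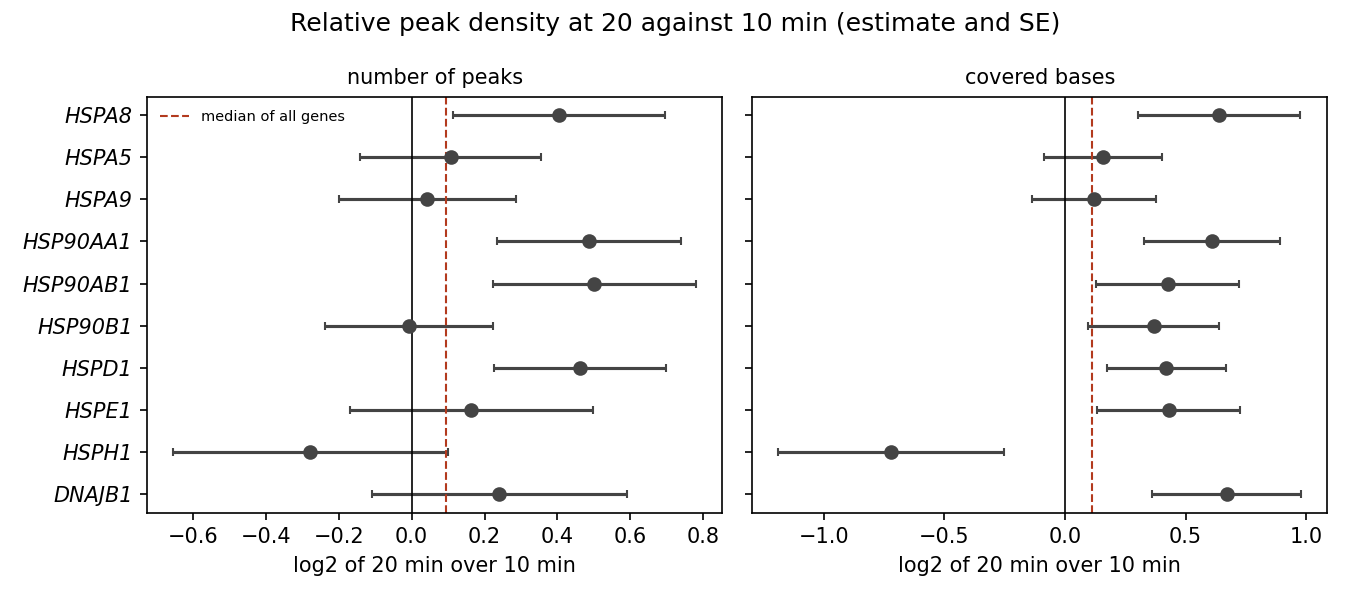
Log2 ratio of relative peak density at 20 min over 10 min (horizontal axis) for each gene, as limma estimates with SE from 2 libraries per time, for the number of peaks (left) and for covered bases (right). The dashed line is the median of all genes tested. HSPH1 has the lowest estimate in both panels, and no gene passed the threshold.

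Among 86 other chaperone and heat shock genes, 79 windows were tested for density, 43 were called higher than the library mean, or 54.4% against 30.7% of all windows, and 1 lower. The median log2 estimate was 0.64. All 8 subunits of the CCT chaperonin, which folds actin and tubulin, were called higher (median 1.17), as were 10 of 20 other J-domain genes (median 0.55), 5 of 9 other HSP70 genes (median 0.64), 6 of 11 HSP70 cofactors (median 0.76) and 3 of 8 HSP90 cochaperones (median 0.41), the last a share near that of all windows. Of the 7 small heat shock protein genes tested 1 was called (median 0.01). The largest estimates were those of DNAJA1 (1.76 ± 0.15 SE), P4HB (1.70 ± 0.22), a disulfide isomerase of the endoplasmic reticulum, CCT6A (1.39 ± 0.15), TCP1 (1.34 ± 0.20) and CCT4 (1.32 ± 0.15), and the gene called lower was the prefoldin subunit VBP1 (-1.13 ± 0.19). Values against the surrounding 500 kb are not given here for these genes, so the estimates do not separate a gene from its region. A persistent site centred 0 to 5 kb downstream of the start was present on 3 of the 86, or 3.49% against 2.06% of all genes. These were TCP1 of the CCT chaperonin, the J-domain gene DNAJA1 and the prefoldin subunit PFDN2.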

How the data were processed

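END-seq libraries of HCT116 cells were compared as 2 biological replicates of each treatment time. According to the study's methods, the authors trimmed paired-end reads with Trim Galore, aligned them to hg19 with Bowtie2, used SAMtools to keep properly paired reads of mapping quality 30 or more without removing duplicates, and split them by the orientation of the first read. MACS2 called peaks for each library and strand with the untreated library as input, without a local background, at a q-value of 0.05. Replicates were not pooled, and spike-in scaling was applied later and is not in the lists. The deposited files give for each peak a score, a fold enrichment as a linear ratio, a −log10 p-value and a −log10 q-value, and the −log10 q-value was used here to rank and filter peaks.

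Gene models were GENCODE release 44 mapped to GRCh37, and starts were those of the MANE Select transcript, else the canonical one. Peaks were counted per window by summit. The log2 of observed over expected peaks, with a pseudocount of 0.5, was fitted with limma 3.58.1 in R 4.3.3 (lmFit, eBayes with trend) over windows with at least 16 peaks in the 4 libraries, and the 2 sides of the start over genes with at least 8, with Benjamini-Hochberg adjustment over all genes tested. Scripts were tested on simulated data. For tests against the library mean, between sides or between strands, the 4 libraries were taken as independent samples of treated cells. The study's methods list 2 experiments, each with both times, so libraries may share an experiment, and the replicate number was also tried as a random block. Depth per library is given by the expected height, and with 2 libraries per time the number of libraries limits the precision. Replicated sites were counted without a test and set beside the same share of all genes. The genes and lists were chosen with earlier results of these data known. All 10 genes of the set are named. Of the other chaperone genes at most 5 called ones are named, by the size of the estimate, together with the 1 called lower and those with a persistent site. For sites, at most 3 per gene, ranked by the weaker replicate, were eligible. Alternatives were stricter peaks, lists of equal length, another pseudocount, no filter, other windows and measures, and leaving out each library.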

Additional observations from a re-analysis of the deposited data

How the results depend on the processing

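0 of the genes tested passed the threshold at 20 against 10 min under the alternatives run. The median change of the chaperone genes, 0.20 on the log2 scale, was -0.014 with lists of equal length, 0.42 on covered bases, 0.073 relative to the surrounding 500 kb and 0.15 to 0.32 when 1 library was left out. With the replicate block the median stayed 0.20 and 0 genes were called. Replicate numbers are shared by the 2 times, and the study's methods list 2 experiments that each hold both times, but the labels do not tie the numbers to them, and with 2 pairs the correlation of replicate differences (0.23 over 18471 genes) does not establish a pairing. Between 8 and 10 chaperone genes were called above the library mean when 1 library was left out. The number with more peaks downstream was 0 by peaks, 6 on covered bases and 3 on summit heights, both of the latter chosen after seeing the data, and 0 without any 1 library. On covered bases with the replicate number as a random block it was 7. For strand balance it was 0, but 1 (DNAJB1) with lists of equal length 1 with a pseudocount of 1 and 1 with the random block. The random block was added after seeing the data and left the other counts of chaperone genes called as they were. The cause of these shifts was not tested. Replicated sites cannot be recounted without 1 library, and their counts stayed at 8 or 9 genes under stricter peaks, equal lists, other pairing distances and gene bodies without flanks.

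Single estimates changed sign as follows. At 20 against 10 min, they did so for HSPA8 in the gene body (-0.20). HSPA5 gave -0.042 with a −log10 q of at least 3, -0.13 with equal lists, -0.098 on forward peaks, -0.15 in the gene body and -0.044 to 0.26 without 1 library. HSPA9 gave -0.12 with a −log10 q of at least 3, -0.26 with equal lists, -0.075 on reverse peaks, -0.016 against the surroundings, -0.061 on summit heights and -0.090 to 0.17 without 1 library. HSP90B1 gave 0.37 on covered bases, 0.092 on reverse peaks, 0.15 in the gene body, 0.082 on summit heights and -0.082 to 0.068 without 1 library. HSPE1 gave -0.045 with equal lists, -0.0079 on reverse peaks and -0.23 to 0.55 without 1 library. HSPH1 gave 0.017 with equal lists and -0.67 to 0.11 without 1 library, and DNAJB1 gave -0.11 with equal lists and -0.15 to 0.63 without 1 library. Between the 2 sides of the start, HSPA8 gave -0.40 within 2 kb and HSPE1 0.66, while from the annotated gene end HSP90AA1 gave -0.22, HSPD1 -0.46 and DNAJB1 -0.27. Without 1 library HSPD1 gave -0.035 to 0.34 and HSPE1 -0.34 to 0.015. In strand balance, HSP90AA1 gave 0.11 with a −log10 q of at least 3 and 0.087 with equal lists, HSP90AB1 0.14 in the gene body, and HSPH1 -0.20 to 0.29 without 1 library. None of these values passed the threshold in either setting.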
